A study of Rattus norvegicus with 3 samples.

Results

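A group of 10 genes known to respond to glucocorticoid hormones were followed in the vestibular nuclei of the rat brainstem, the first relay of the balance signals of the inner ear. They are Nr3c1, Fkbp5, Tsc22d3, Zbtb16, Per1, Sgk1, Errfi1, Pdk4, Ddit4 and Cdkn1a. They were chosen by name, with earlier results of these data known. Every probe whose RefSeq accession belongs to 1 of them was taken, which gave 16 probes of 10 genes among 41012 probes. Of these 41012 probes, 10768 could be named and stood for 8899 genes. RNA was hybridised in 1 colour to 3 Agilent arrays, 1 for each group: a sham-operated control, the vestibular nuclei 1 day after removal of the left labyrinth, and the vestibular nuclei 7 days after it, on the operated side in both cases. All rats were adult Sprague-Dawley males weighing 200 to 250 g, and the labels name 3 of them for each group because the nucleus of 1 rat gave too little RNA, so an array appears to carry pooled tissue. The protocol text calls the controls normal while the sample labels call them sham-operated. The side taken from the controls, the time from the sham operation to dissection and the hour of dissection are not given in the sources used here.

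Glucocorticoids, the steroid hormones of the adrenal cortex, bind the receptor encoded by Nr3c1, which then enters the nucleus and switches genes on or off. Several of its targets act back on the stress response: FKBP5 lowers the receptor's affinity for hormone, and the product of Tsc22d3 (also called GILZ) restrains inflammatory transcription. Other targets hold back growth and fuel use, among them Ddit4 (REDD1), a brake on the growth kinase mTOR, Pdk4, which shuts pyruvate out of the mitochondrial fuel cycle, and Cdkn1a (p21), which stops the cell cycle. These genes also answer to other signals, such as fasting, low oxygen and DNA damage.

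A level below is the log2 of a probe's processed intensity minus the log2 of its array's 75th percentile over the spots that are not controls (5692 units for sham, 5242 for day 1, 5676 for day 7). A fold or log2 difference compares such levels between 2 arrays. A gene with several probes is represented by the probe with the highest mean level. Measured means that this probe stood well above background on both arrays compared and was saturated on neither, and lower or higher means a difference of at least 2-fold. With 1 array a group there is no replicate error and no test. The ± after a log2 difference is the error that the scanner software gives for the spots, about 10.0% of a bright signal, carried over from both arrays, and it leaves out rats, dissections and labellings.

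At 7 days after labyrinthectomy, 3 of the 9 measured genes were at least 2-fold lower than in sham, and none was 2-fold higher. The 3 were Pdk4, Ddit4 and Cdkn1a. Among all 6261 measured genes, 5.73% were lower and 11.1% were higher by this rule. Of the 9 genes, 8 had a log2 difference below 0 against 46.7% of all genes, and their median was -0.61 against 0.05. At day 1 none of the 9 genes was 2-fold lower or higher, where 4.37% and 8.26% of 6292 measured genes were. Here 7 of the 9 lay below 0 against 49.9% of all genes, and the median of the 9 was -0.48 against 0.00. Between day 1 and day 7, Pdk4 and Cdkn1a were at least 2-fold lower and no member was higher, against 5.32% lower and 6.56% higher of 6142 genes, and 7 of 9 lay below 0 against 46.4%. The 3 comparisons share arrays, so their counts are not separate evidence. Because the members were chosen with earlier results of these data known, the counts are no independent test of the group. Tsc22d3 was saturated on all 3 arrays by its brightest probe and is the member that could not be counted.

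These shares differ between dim and bright genes. Of the measured members, Per1, Pdk4 and Ddit4 lay below the median level of all measured genes and the other 6 above it. Below that median 42.2% of genes lay below 0 at day 1 and 37.3% at day 7, and all 3 members there were below 0 on both days. Above it these shares were 57.6% and 56.1%, and 4 of 6 members were below 0 at day 1 and 5 of 6 at day 7. At day 7, 7.25% of the dimmer genes and 4.22% of the brighter ones were at least 2-fold lower. With a 1.5-fold limit, Ddit4 alone was lower at day 1, against 11.7% of all genes, and 5 members were lower at day 7, against 13.1%, with Zbtb16 and Errfi1 added to the 3. In bulk tissue, fewer cells of a type and less RNA per cell cannot be told apart.

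**Figure D1:**
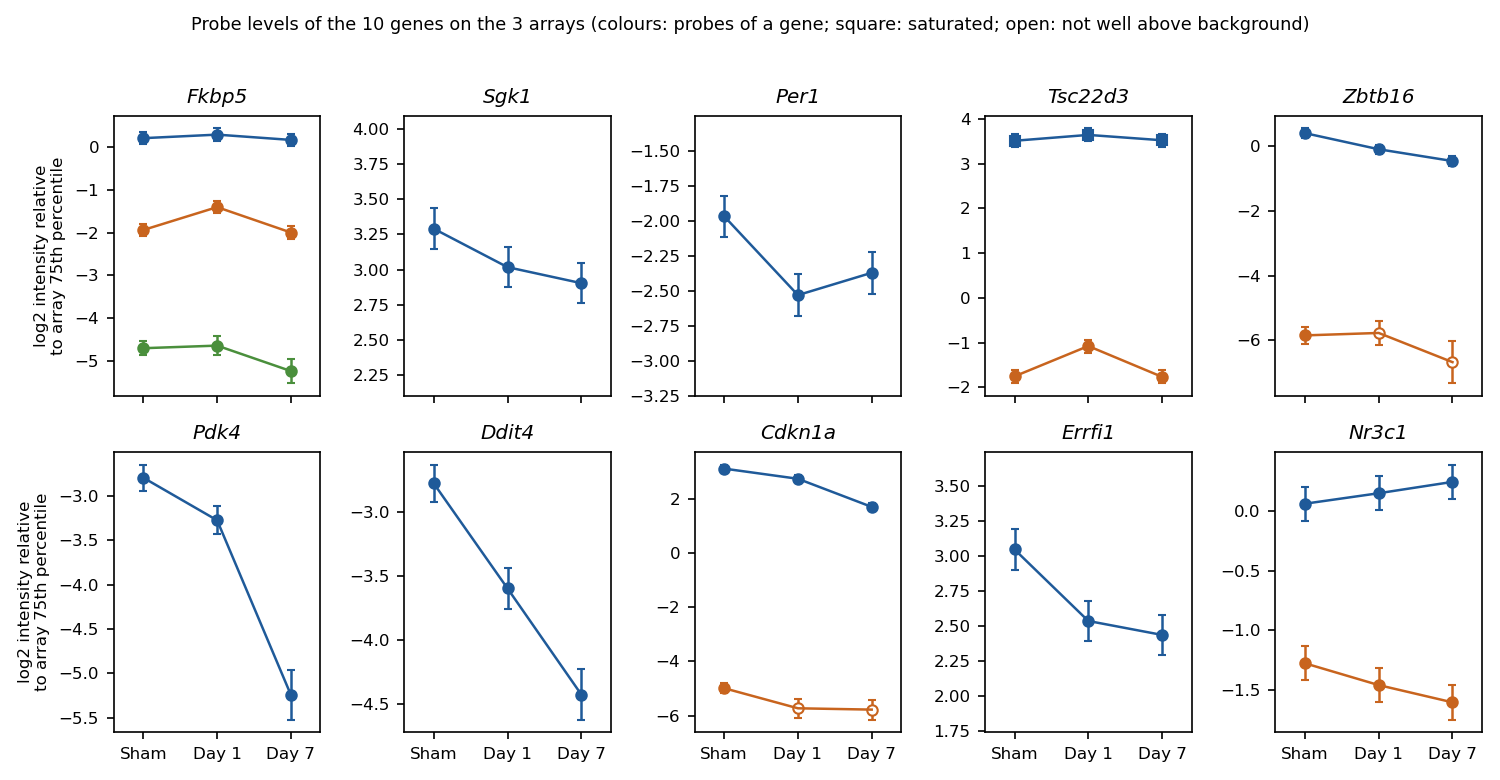
Level of every probe of the 10 genes (y axis, log2 intensity relative to the array's 75th percentile) on the sham, day 1 and day 7 arrays (x axis). Colours are different probes of a gene, bars are the scanner software's error, squares are saturated and open points are not well above background. Pdk4 went from -2.80 in sham to -5.25 at day 7, and Ddit4 from -2.77 to -4.43.

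Pdk4 had the largest difference of the 9 measured genes. It encodes a pyruvate dehydrogenase kinase, which inactivates the enzyme that feeds pyruvate into the citric acid cycle and so spares glucose. Its only probe read 819.8 intensity units in sham, 541 at day 1 and 149.6 at day 7. The day 7 array stood apart from the other two, and the day 1 reading lay nearer to sham. Pdk4 was 5.46-fold lower at day 7 than in sham (log2 difference -2.45 ± 0.31) and 3.92-fold lower than at day 1 (-1.97 ± 0.32), while day 1 was 1.39-fold below sham (-0.48 ± 0.21). Of all measured genes, 0.863% had a lower log2 difference at day 7 against sham. The dimmest spot well above background at day 7 read 121.6 units, not far under Pdk4, and the scanner error of Pdk4 there was 19.3%. With normexp, another background correction that adds an offset, the day 7 difference shrank to -1.64 and that against day 1 to -1.37, both still past 2-fold.

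Ddit4, the mTOR brake, had its highest reading in sham and its lowest at day 7. Its only probe read 832 units in sham, 433 at day 1 and 264 at day 7, so each array lay below the one before it. At day 7 it was 3.15-fold lower than in sham (log2 difference -1.65 ± 0.25). The day 1 array lay 1.77-fold below sham (-0.82 ± 0.22), short of the 2-fold limit, and day 7 lay 1.78-fold below day 1 (-0.83 ± 0.26). Of all measured genes, 1.87% had a lower difference at day 7 and 6.48% at day 1. Under the alternatives for scaling and background the day 7 difference ranged from -1.82 to -1.32.

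Cdkn1a, the cyclin-dependent kinase inhibitor p21, has the most readings of the 3, since its main probe is printed on 10 spots of each array. In sham the 10 spots ran from 45611 to 53661 units, with a median of 49592. At day 1 the 9 spots without an outlier mark ran from 34055 to 36314, with a median of 35334. At day 7 the 9 unmarked spots ran from 17625 to 19354, with a median of 18662. The spots of the 3 arrays did not overlap, and the SD among spots was 0.08, 0.03 and 0.04 on the log2 scale. Spots repeat a measurement within an array and say nothing of the spread between rats. Cdkn1a was 2.67-fold lower at day 7 than in sham (log2 difference -1.41 ± 0.20), and spot by spot the difference ran from -1.49 to -1.34, with 9 of 9 spots past 2-fold. At day 1 it was 1.30-fold below sham (-0.38 ± 0.20). Against day 1, day 7 was 2.06-fold lower (-1.04 ± 0.20), and 6 of 9 spots passed 2-fold. This last call sits on the limit: it was -0.99 under cyclic loess normalisation and -0.92 without scaling between arrays.

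The second Cdkn1a probe was dim. It read 179 units in sham, well above background, and 98.6 and 103 at day 1 and day 7, where it was not. A reading below background gives only a bound, which sets the sham level against the lowest level that was well above background on the other array. By that bound the probe was at least 1.51-fold lower at day 1 and at least 1.47-fold lower at day 7. Pdk4 and Ddit4 have 1 probe each, so none of the 3 calls at day 7 has a second measured probe. Across the array, 40 genes with a second measured probe were at least 2-fold lower at day 7 by the brighter one, of which 22 had the same sign by the next and 7 were 2-fold lower by both.

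**Figure D2:**
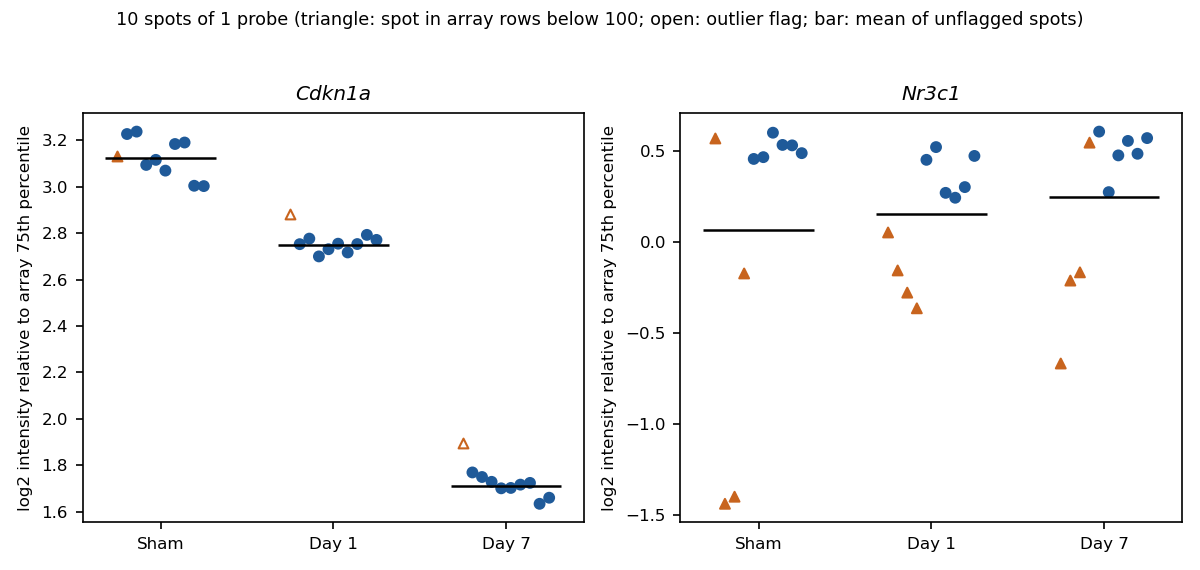
Level of each of the 10 spots (y axis, log2 intensity relative to the array's 75th percentile) of the main probes of Cdkn1a and Nr3c1 on the 3 arrays (x axis). Triangles are spots in array rows below 100, open symbols carry an outlier mark and bars are means of unmarked spots. The Cdkn1a spots form 3 separate bands, while the Nr3c1 spots of the arrays overlap and the lowest ones are triangles.

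Summed levels of cell type markers differed between the arrays, in some types by more at day 7 than at day 1. Levels were summed on the linear scale, as intensity over the array's 75th percentile, for markers well above background and unsaturated on all 3 arrays. The neuron sum (13 of 16 markers) was 59.1 for sham, 58.0 for day 1 and 46.6 for day 7, and the oligodendrocyte sum (12 of 14) was 33.3, 29.4 and 24.6. The microglia sum (6 of 12) was 5.10, 3.90 and 8.61, and that of choroid plexus and ependyma (6 of 12) was 1.07, 0.93 and 2.53, with Kl and Clic6 not well above background on any array. The meninges and muscle sum (8 of 12) was 2.70, 3.16 and 4.33, and the astrocyte sum (8 of 10) was 18.9, 18.9 and 18.2. The endothelial and pericyte sum (8 of 14) was 15.0, 16.7 and 16.2, and the blood sum (3 of 10) was 5.53, 6.99 and 6.39. At day 7 the neuron sum was 0.79 and the oligodendrocyte sum 0.74 of that in sham. Single markers varied widely around these sums. Of 14 measured neuron markers, 10 lay below 0 at day 7 and 4 above it. At least 2-fold lower were 4, the glycine transporter Slc6a5 (-5.26) and the neurofilaments Nefh (-2.30), Nefl (-1.61) and Nefm (-1.17). The linear sum weights bright markers, and Nefm, Nefh and Nefl were at levels of 3.03, 2.05 and 1.70 in sham. Above 0 were Snap25 (0.47), Stmn2 (0.20), Slc17a6 (0.18) and Gad1 (3.39). The main Gad1 probe was dim in sham (level -5.26). Its other probes were at 1.59 and, not measured by the rule, at -0.14. Of 12 measured oligodendrocyte markers, Mbp (-1.29) was lower and none was higher. Of 7 measured choroid plexus and ependyma markers, 5 lay above 0 at day 1, with a median of 0.24, although their sum was lower. Ttr, at a level of -1.14 in sham, was at -1.20 there. At day 7, 6 of 7 lay above 0. The part of cell composition in the members' values was not tested. The 3 arrays lay at positions 4, 3 and 2 of 1 slide, in that order, so position and group cannot be told apart, and signal well above background was found at 81.3%, 77.3% and 76.9% of spots.

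The sequences before the starts of these 3 genes are shown because all 3 passed 2-fold at day 7, with Tsc22d3 added as the member whose window holds a core glucocorticoid response element. Each sequence is the 250 bases before a RefSeq transcription start in the rat assembly GRCr8, read 5′ to 3′ on the strand of the gene. RefSeq windows were found for 9 of the 10 genes, with 14 starts, and Zbtb16 had none. The Pdk4 window lies at chr4:34568330-34568579 on the minus strand, that of Ddit4 at chr20:28437038-28437287 on the minus strand, that of Cdkn1a at chr20:7150682-7150931 on the plus strand, and that of Tsc22d3 at chrX:109065431-109065680 on the minus strand. Capitals mark a CCAAT box, read here on the other strand as ATTGG, in Pdk4 and Ddit4, the core ACGTG of a hypoxia response element in Ddit4, and the core palindrome ACANNNTGT of a glucocorticoid response element in Tsc22d3.
Pdk4: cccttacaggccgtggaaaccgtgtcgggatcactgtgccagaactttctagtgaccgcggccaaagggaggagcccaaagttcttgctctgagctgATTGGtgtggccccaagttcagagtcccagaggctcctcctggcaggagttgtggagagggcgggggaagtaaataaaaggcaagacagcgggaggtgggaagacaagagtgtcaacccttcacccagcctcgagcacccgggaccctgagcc
Ddit4: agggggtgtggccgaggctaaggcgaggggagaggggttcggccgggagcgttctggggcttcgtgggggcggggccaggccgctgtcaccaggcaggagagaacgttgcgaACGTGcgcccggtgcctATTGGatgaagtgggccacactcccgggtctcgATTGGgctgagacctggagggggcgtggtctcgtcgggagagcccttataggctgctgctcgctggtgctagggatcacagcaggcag
Cdkn1a: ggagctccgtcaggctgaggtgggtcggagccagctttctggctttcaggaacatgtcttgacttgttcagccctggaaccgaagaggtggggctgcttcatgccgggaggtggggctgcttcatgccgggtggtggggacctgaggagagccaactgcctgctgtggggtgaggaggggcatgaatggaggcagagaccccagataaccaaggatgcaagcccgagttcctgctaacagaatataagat
Tsc22d3: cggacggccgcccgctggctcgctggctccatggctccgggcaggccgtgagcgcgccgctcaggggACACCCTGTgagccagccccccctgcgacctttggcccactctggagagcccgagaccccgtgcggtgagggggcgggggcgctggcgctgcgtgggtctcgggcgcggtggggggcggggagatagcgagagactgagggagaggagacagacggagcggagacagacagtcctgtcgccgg

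A set of 10 motifs was searched on both strands of all 33469 windows of this length. Among the members the core palindrome ACANNNTGT was found once, 183 bases before this Tsc22d3 start, and 5.81% of all windows hold it. The full palindrome of that element (0.0120% of windows) and its single arm TGTTCT (17.5%) were in no member window. The E-box CACGTG (5.59%), through which clock proteins bind, was in none either. The hypoxia core ACGTG, whose letters overlap the E-box (16.6% of windows), lay 138 bases before the Ddit4 start and 53 bases before that of Errfi1. The CCAAT box (34.0%) lay 153 bases before the Pdk4 start, 121 and 88 bases before the Ddit4 start, and in windows of 5 members in all. The core TGACGT of a cyclic AMP response element (6.95%) was found in Errfi1, the FOXO site TGTTTAC (3.21%) at another start of Tsc22d3, the TATA box TATAAA (12.9%) in 3 members and the GC box GGGCGG (30.5%), left in lower case here, in 7. The Cdkn1a window held none of the 10. A match is a string of letters only, members with several starts had more windows to match in, and elements farther away are not covered. The 4 printed windows hold 59.2% (Pdk4), 67.6% (Ddit4), 58.8% (Cdkn1a) and 74.4% (Tsc22d3) of G and C, against a median of 51.2% over all windows.

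The main probe of the receptor gene itself, Nr3c1, differed from sham by less than the scanner error on both days. The mean intensity of the 10 spots of its main probe, averaged on the log2 scale, was 5943, 5818 and 6729.7 in sham, day 1 and day 7. The log2 difference from sham was 0.09 ± 0.20 at day 1 and 0.18 ± 0.20 at day 7. The spots varied far more than those of Cdkn1a: they ran from 2098 to 8626 in sham, from 4069 to 7520.3 at day 1 and from 3569.7 to 8637 at day 7, so the 3 arrays overlapped throughout. Their SD was 0.81, 0.32 and 0.44 on the log2 scale, which was larger than in 97.7%, 89.5% and 93.3% of the probes with at least 8 usable spots. None carried an outlier mark. The low readings lay among the 4 spots in array rows below 100, a limit that was not planned in advance. The 6 spots in higher rows ran from 7806 to 8626, from 6200.4 to 7520.3 and from 6858 to 8637, and gave differences of -0.14 at day 1 and -0.02 at day 7, against 0.42 and 0.49 from the 4 others. Spots of other probes near the low ones were not low. In rows 50 to 65 and columns 18 to 33 of the sham array, 2 Nr3c1 spots lay -1.92 and -1.88 from their probe's median on the log2 scale. There, 7 spots of other probes printed on 10 spots lay between -0.12 and 0.40 from theirs. The cause of the low Nr3c1 readings was not tested. The value from medians of spots, chosen after the spots were seen, was -0.22 at day 1 and 0.00 at day 7. The second Nr3c1 probe read 2346, 1903 and 1863 units, with differences of -0.18 ± 0.20 at day 1 and, larger than its error, -0.33 ± 0.21 at day 7. The sign of the Nr3c1 difference at day 1 thus turns with the probe, with the spot summary, and with median scaling or none.

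Fkbp5 encodes a co-chaperone that sits on the receptor complex and is among the most regular targets of glucocorticoids in brain. Its brightest probe read 6565 units in sham, 6401 at day 1 and 6362 at day 7, differences of 0.08 ± 0.20 and -0.04 ± 0.20 from sham. These are within the scanner error, and their signs turn under some scalings (day 1 under median scaling and without scaling, day 7 with the percentile taken over detected probes). The second probe read 1485, 1979.6 and 1421 units, so only day 1 was high, by 1.45-fold (0.53 ± 0.21). The third read 219, 210.2 and 151 units, with differences of 0.06 ± 0.27 and -0.53 ± 0.33. The 3 probes thus placed Fkbp5 between 0.06 and 0.53 at day 1 and between -0.53 and -0.04 at day 7, none of them past 2-fold. Across the array, the 2 brightest probes of a gene differed in their log2 difference by a median of 0.34 at day 1 (1139 genes) and 0.41 at day 7 (1121 genes).

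Tsc22d3 encodes GILZ, a mediator of the anti-inflammatory action of glucocorticoids. Its brightest probe was saturated throughout, at 64870.2, 65414 and 65193 units, and gives no fold. The second probe read 1691 units in sham, 2489 at day 1 and 1672 at day 7. Day 1 was the high array and the other two were alike. The day 1 reading was 1.60-fold above sham (0.68 ± 0.20) and 1.61-fold above day 7, where the difference from sham was -0.01 ± 0.21. This probe and the second Fkbp5 probe were the readings of the 16 that lay above sham by more than 0.5 at day 1, and neither reached 2-fold.

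Zbtb16 encodes the transcriptional repressor PLZF, a gene strongly induced by glucocorticoids in many cell types. Its main probe read 7516 units in sham, 4899 at day 1 and 4121 at day 7. Both arrays after surgery lay below sham, by 1.41-fold at day 1 (-0.50 ± 0.20) and by 1.82-fold at day 7 (-0.86 ± 0.20), short of 2-fold. Of all measured genes, 7.40% had a lower difference at day 7. The second probe read 98.7, 95.8 and 55.5 units, was well above background in sham only and gave no bound above 1.

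Per1, a core repressor of the circadian clock that glucocorticoids induce directly, read 1455 units in sham, 907 at day 1 and 1097 at day 7. Both readings after surgery were below sham, with differences of -0.56 ± 0.21 and -0.40 ± 0.21, and day 7 was 0.16 ± 0.21 above day 1. Per1 levels in brain follow the time of day. In a list of 21 clock genes that holds Per1, at day 1 none of the 13 measured was past 2-fold, with a median of -0.05, and at day 7 none of 14 was lower and 2 were higher, with a median of 0.52 against 0.05 for all genes. The 2 were Nr1d2 (1.32), a repressor of the clock, and Per3 (1.31). Per2, a partner of Per1, was at -0.41 and 0.01, Dbp, a clock output factor, at 0.04 and -0.05, and Nr1d1 at 0.01 and 0.87.

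Sgk1 encodes a kinase that adjusts ion channels and transporters, and it was among the bright members. Its probe read 55723 units in sham, 42431 at day 1 and 42446 at day 7, with no saturation mark. The arrays after surgery were alike and lay below sham, at -0.27 ± 0.20 and -0.39 ± 0.20. Errfi1 (MIG6) encodes a feedback inhibitor of the EGF receptor family. It read 47059 units in sham, 30433 at day 1 and 30755 at day 7. This is the same shape: 1.42-fold below sham at day 1 (-0.51 ± 0.20) and 1.53-fold at day 7 (-0.61 ± 0.20), with a day 7 to day 1 difference of -0.10 ± 0.20. For both genes that last difference turns sign without scaling between arrays.

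**Figure D3:**
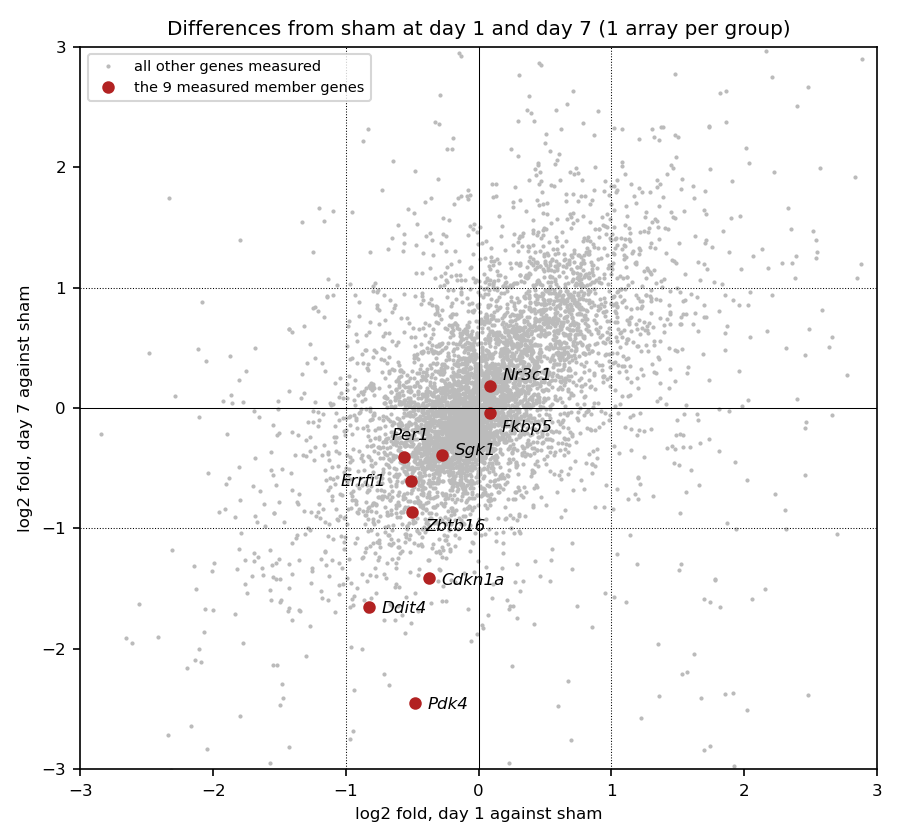
Log2 difference from sham at day 1 (x axis) and at day 7 (y axis) of the 9 measured members (red, named) and the other genes measured on all arrays (grey; 6047 genes in all, 63 of them outside the axes). Dotted lines mark 2-fold. Both axes share the sham array, so the slope of the cloud is no result; Pdk4, Ddit4 and Cdkn1a lie below the lower dotted line.

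Other known glucocorticoid targets had medians near that of all genes. Of 38 listed genes 27 had a named probe and 23 were measured. For this list and those below, the shares of all measured genes are 4.37% lower and 8.26% higher at day 1. At day 7 they are 5.73% and 11.1%. At day 1 none was lower and 2 were higher, Fam107a (1.93), an actin-binding stress gene, and Hif3a (1.42), with a median of -0.04, which was negative under every scaling tried and 0.10 with normexp background. At day 7, 2 were lower and 3 higher, with a median of 0.16. The lower ones were Gpd1 (-1.65), a glycerol phosphate dehydrogenase, and Rhob (-1.44), a small GTPase. The higher ones were Hif3a (1.95), Anxa1 (1.49), an anti-inflammatory annexin whose second probe was at 2.16, and Angptl4 (1.32), an inhibitor of lipoprotein lipase. Hif3a has 1 probe, which was dim in sham, at a level of -5.74, where the lowest well above background was -6.41. Fam107a was at -0.45 at day 7. Klf9, a transcription factor induced by the hormone in neurons, was at -0.15 and -0.16, Glul, the glutamine synthetase of astrocytes, at -0.17 and -0.85, and Tsc22d4 at -0.33 and -0.03. Dusp1, a phosphatase that switches off MAP kinases, was well above background in sham alone, so these counts leave it out. The sham array put it at a level of -4.14. By the bound used for Cdkn1a, Dusp1 was at least 2-fold lower than in sham on both days.

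Genes that make, sense or clear the hormone were listed separately (24 genes, 16 with a probe). At day 1 none of 12 measured was lower and 1 was higher, and at day 7, 2 of 13 were lower and 2 higher, with medians of 0.08, which turns negative under median scaling and without scaling, and -0.17. Nr3c2, the mineralocorticoid receptor, was at -0.51 and -1.37 by its main probe, but at 0.68 and 0.17 by its second. Hsd11b1, which regenerates active hormone, was at -0.28 and -0.32, and Hsd11b2, which inactivates it, at 1.33 and 2.25. Crh, the releasing hormone that starts the stress axis, was at 0.85 at day 1 and -1.82 at day 7. Pomc, the precursor of corticotropin, was at 0.87 and 1.34. The receptor's chaperone Hsp90ab1 was at 0.14 and -0.02. Crhr1 was not well above background at day 1 and was not counted there. Its level was -4.14 in sham and -5.53 at day 1, at least 2-fold lower by the bound used for Cdkn1a. At day 7 it was measured, at -0.36.

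The pathways around Pdk4, Ddit4, Cdkn1a and Errfi1 were read from further lists. In fatty acid and pyruvate metabolism (24 genes, 17 measured) none was lower and 2 were higher at day 1, Ppara (2.46) and Ppard (1.53), both lipid-sensing receptors. At day 7, 1 was lower, Ppard (-1.30), and 2 were higher, among them Angptl4 (1.32), and the median was -0.50. The sister kinases Pdk1 (-0.97 and 0.27) and Pdk2 (-0.15 and -0.39) were not past 2-fold on either day; whether they differ from Pdk4 was not tested. In the hypoxia response, which induces Ddit4, 3 of 15 measured genes were lower and 2 higher at day 1, and 4 of 14 were lower and none higher at day 7, with medians of -0.18 and -0.28. Of all measured genes, 4.37% were lower and 8.26% higher at day 1, and 5.73% and 11.1% at day 7. A link of this list to the Ddit4 values was not tested. Vegfa, the vascular growth factor, was at 1.79 and -3.44 by its main probe but at 0.25 and -0.63 by its second. Hk2, a hexokinase, was at 1.92 and -2.37, the oxygen-regulated factor Epas1 at -1.48 and -2.41, Ndrg1 at -1.04 and -1.06, and Pfkfb3 at -1.23 at day 1. At day 7 Pfkfb3 was not well above background and was not counted. Its level was -2.98 in sham and -5.46 at day 7, at least 2-fold lower by the same bound.

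Among 18 listed genes of mTOR control, 8 were measured. At day 1 the kinase Akt2 was lower (-2.11) and Tsc1, dim at a level of -4.99 in sham, was higher (1.07). At day 7 Tsc1 was again higher (1.10) and none was lower. Tsc2, brighter at a level of 1.40 in sham, was at -0.03 and -0.18. Of the p53 targets, the class to which Cdkn1a belongs, 1 was lower on each day, Btg2 (-2.20 and -2.16), and none was higher, among 9 and 8 measured. Phlda3 was not well above background at day 7 (level -4.24 in sham, -5.50 at day 7). It was at least 2-fold lower there by the bound used for Pfkfb3. Tp53inp1 was well above background at day 1 alone (level -5.24), and by that bound at least 2-fold higher than in sham. Of the cyclin-dependent kinase inhibitors and their partners none was past 2-fold at day 1, and at day 7 only Cdk2 was, at 1.21. The sister inhibitor Cdkn1b was at 0.06 and 0.02 by its main probe and at -0.23 and -0.45 by its second. In the EGF receptor family that Errfi1 restrains, 1 of 9 measured genes was lower and 2 higher at day 1, and 1 lower and 3 higher at day 7. Egfr itself was at -1.68 at day 1 by its main probe and at -0.22 by its second. Erbb3 was at 3.20 at day 1, but its sham level of -6.24 lay near the lowest well above background there (-6.41). At day 7 Erbb3 was not well above background. Nrg1 was at 1.01 at day 1 and 0.38 at day 7 by its main probe, and at -0.11 and -1.48 by its second. At day 7 Spry2, another feedback inhibitor, was at 2.22, Egf at 1.19, Erbb2 at 1.08 and the ligand Tgfa at -1.16.

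**Figure D4:**
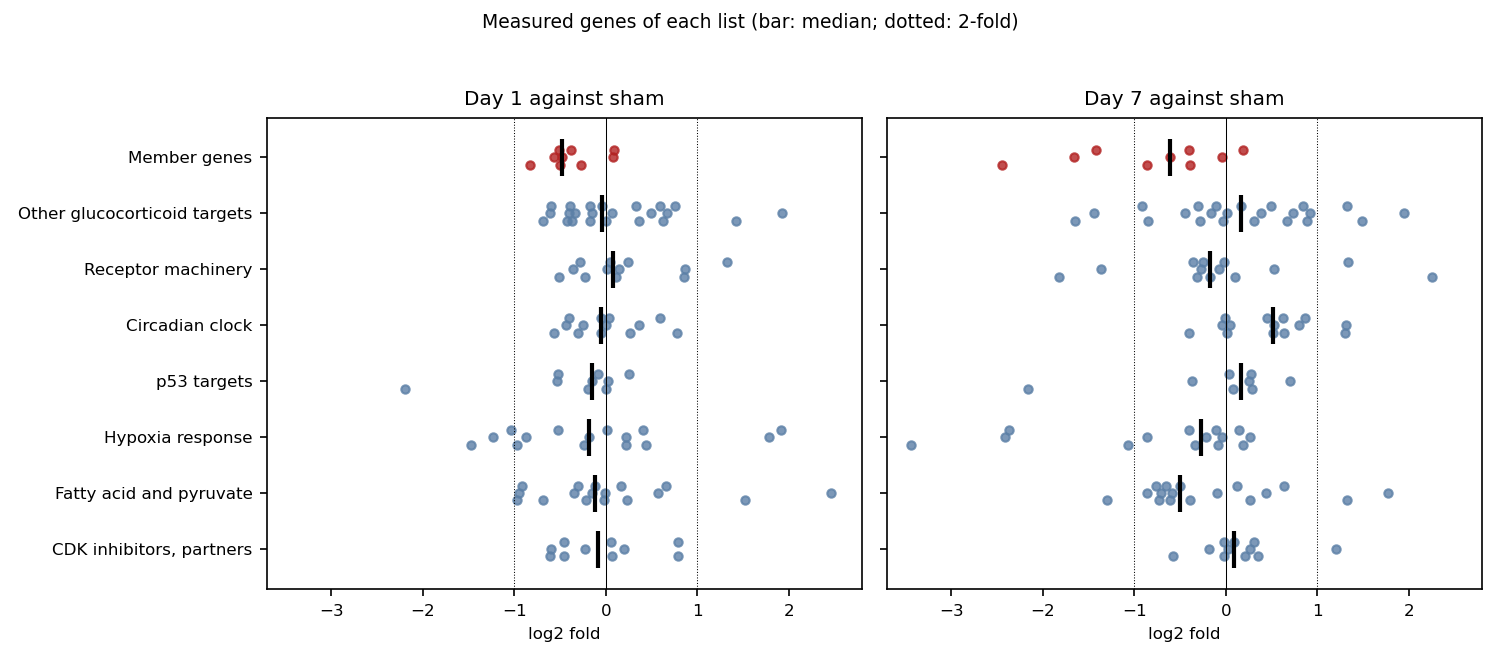
Log2 difference from sham (x axis) at day 1 and at day 7 of every measured gene in the member list and 7 related lists (y axis); bars are medians and dotted lines mark 2-fold. The members' median is -0.48 at day 1 and -0.61 at day 7, that of the other glucocorticoid targets -0.04 and 0.16.

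The genes whose pair of differences (day 1 and day 7 from sham) lay closest to each of the 3 lower members were taken from 3023 genes above the median level (3022 for Cdkn1a), by Euclidean distance on the log2 scale over these 3 arrays. Nearest to Pdk4 was Nefh, the heavy neurofilament, at -0.68 and -2.30 (distance 0.25), followed by Tmx2 (0.67) and Cd209f (0.76). Nearest to Ddit4 were Tpi1, a glycolytic enzyme, at -0.67 and -1.63 (0.15), Atox1 (0.27) and Scn8a, a neuronal sodium channel (0.28). Nearest to Cdkn1a were Adrm1, at -0.45 and -1.34 (0.10), Rab3a, a synaptic vesicle protein (0.11), and Carnmt1 (0.12). Even the nearest gene to Pdk4 lay farther away than the third nearest of Cdkn1a. Pdk4 itself lay below the median level, so genes as dim were not searched, and 0.863% of measured genes had a lower day 7 difference. The distance therefore does not show how particular its pattern is.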

How the data were processed

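The authors read 3 one-colour (Cy3) arrays with Agilent Feature Extraction 10.7.3.1, per the file headers, from 1 µg of total RNA each, per the labels. The deposited scanner files give a processed intensity per spot, linear and background-subtracted, with flags for background, saturation and outliers. The deposited series table equals that intensity within 0.1 percent for 99.7% of values on each array. Probes were named through RefSeq accessions in a GRCr8 table. Each array was centred on its 75th percentile, outlier spots were left out and spots averaged on the log2 scale, in Python 3.11.15 with pandas 2.3.3; limma 3.58.1 (R 4.3.3) gave quantile, cyclic loess and normexp values. The files hold no mean signal, so normexp (offset 50) used the median signal. Spot averaging, scaling and the 2-fold call were tested on simulated data. All simulated spots were set as well above background, unsaturated and without an outlier mark, so the filters, the naming and the alternatives were not tested. There is no replicate and no test: differences were called at 2-fold. Members and lists were chosen with earlier results of these data known. Named by rule were all members with every probe, up to 3 measured genes of a list per day past 2-fold, preset partners, and the 3 nearest patterns of each member past 2-fold. Some further list genes, past 2-fold or set beside these, are named as well. Nfkbia, Fkbp4, Ddit4l, Sgk2 and Sgk3, preset too, had no named probe here, and Tsc22d1 was not analysed here. A gene that this rule names is not reported here.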

Additional observations from a re-analysis of the deposited data

How the results depend on the processing

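A set of 12 alternatives was computed, 11 planned and 1 added after the spots were seen. The 3 members lower at day 7 against sham stayed past 2-fold under every scaling, background, spot and filter setting: Pdk4 ranged from -2.62 to -1.64, Ddit4 from -1.82 to -1.32 and Cdkn1a from -1.54 to -1.34. The count lower at day 7 against day 1 went from 2 to 1 under cyclic loess and to 1 without scaling, where Cdkn1a was at -0.99 and -0.92. With the 1.5-fold limit, 1 member was lower at day 1 and 5 at day 7. Only Fkbp5 and Nr3c1 have a next brightest measured probe as well as a measured main one. Over those 2 genes 1 lay below 0 at day 1 (median 0.18), 2 at day 7 (median -0.19) and 2 at day 7 against day 1, and 0 were 2-fold lower at day 7 against sham or against day 1. Smaller moves were seen elsewhere: members below 0 at day 1 went from 7 to 9 under median scaling and without scaling, and at day 7 against day 1 from 7 to 5 without scaling. The median at day 7 against day 1, -0.12, was -0.01 without scaling and -0.48 with the median of measured probes, and the lower count there was 3 with the 1.5-fold limit. Without scaling, the median of all genes shifted to -0.12 at day 1 and 0.15 at day 7 against day 1. Scaling turned the sign of Fkbp5 (both days) and Nr3c1 (day 1), and of Sgk1 and Errfi1 between the days. No paired analysis was possible because each group has 1 array. At day 7 the scanner error was 19.3% for Pdk4 and 13.7% for Ddit4, and 1 array a group limits every value.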
